A study of Mus musculus with 30 samples.

Results

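The comparison described here was that of old hearts from mice that had drunk nicotinamide riboside (NR) with old hearts from mice that had drunk plain water, both taken at ZT10. Its members were the 3 old NR and the 3 old H2O hearts harvested at that time, found by their sample labels, 6 of the 30 samples of the series and 6 of its 18 hearts. All were from female mice labelled C57BL6, described in the study's methods as a mixed C57Bl6J/N strain, and all were 12 months old. The old NR mice had received 3 g/l NR in light-protected drinking bottles since the age of 2 months, by cages that were assigned at random, and which mice shared a cage is not given in the sources used here. ZT10 lies in the light phase, 10 h after lights-on. The remaining 12 hearts (old H2O and old NR at ZT22, young hearts of mice without NR, 2 months old, at ZT10 and ZT22, 3 of each) entered the same model and are given only as reference. Each heart gave 1 library of stranded mRNA, read from a single end and counted over the exons of each gene. The old H2O libraries at ZT10 held 4987058, 5905919 and 4935128 counts and the old NR libraries 5619294, 6578644 and 5962458, so that the NR libraries were on the whole deeper.

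NR is a precursor of NAD+, the electron carrier of mitochondrial fuel oxidation and the substrate of sirtuins and other NAD+-consuming enzymes. Cells phosphorylate NR with the kinases NMRK1 and NMRK2, of which NMRK2 is abundant in muscle, and heart tissue can yield RNA of ventricle, atria, valves, vessels, fibroblasts and immune cells together. The study weighed hearts of these treatments as both ventricles together, and whether atria were left on the hearts used for RNA is not given in the sources used here. Atrial myocytes carry their own set of contractile and calcium-handling proteins, among them the myosin light chains MYL7 and MYL4 and the SERCA inhibitor sarcolipin (SLN). In such bulk samples, fewer cells of a type and less RNA per cell cannot be told apart.

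Few genes separated the old NR from the old H2O hearts at ZT10, and the largest differences among the called genes were in those lower with NR, led by Cilp2 and Fgf12 and followed by the atrial transcripts Mybphl and Sln. Among 15443 genes tested, edgeR's quasi-likelihood test called 44 at an adjusted p under 0.05, which is 0.285% of the genes tested. Of these, 26 were lower with NR (0.168% of the genes tested) with a median log2 fold change of -0.86, and 12 of them differed by more than 2-fold. The other 18 were higher with NR (0.117%) with a median of 0.53, of which 1, the noncoding Gm11752, passed 2-fold. The 3 hearts of each group did not overlap for any of the 44, while 18.8% of all genes tested had groups that did not overlap, 9.58% with NR above and 9.23% with NR below. An unadjusted p under 0.05 was reached by 1567 genes (10.1%), of which 866 were higher (5.61%) and 701 lower (4.54%). Over all genes the median log2 fold change was -0.003.

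The number of calls depended on single hearts. Without old H2O replicate 2 edgeR called 22 genes, without old NR replicate 2 it called 4, without old H2O replicate 1 it called 1, and it called 0 without old NR replicate 1 or 3 and without old H2O replicate 3, with 1162 to 1498 genes at an unadjusted p under 0.05 in these fits. All 44 genes kept their direction in all 6 of these fits, and 21 were called in at least 1 of them. Old H2O replicate 3 held the highest old H2O value for 20 of the 26 lower genes, and for all 10 of those with a log2 fold change below -1.5. Some other fits called more genes, with 234 by edgeR and 121 by DESeq2 on only the 6 hearts and 77 with library size as a covariate. The hearts were labelled as separate samples, and the p-values of the reported fit rest on the spread between hearts within each of the 6 groups. That spread was estimated over all 18 hearts. Since NR was given by cage and the cages are not known, hearts of mice from the same cage counted as independent.

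Levels are given as CPM, counts per 1000000 counts of a library after TMM normalization, in old H2O replicates 1, 2 and 3 and then in old NR replicates 1, 2 and 3. A transcript not called at ZT10 split the hearts in a way that neither group nor time follows. Sun1, which encodes a protein of the inner nuclear membrane, had 138.8, 140.5 and 151.3 CPM in old H2O and 144.5, 430.2 and 398.8 CPM in old NR hearts at ZT10. Old NR replicates 2 and 3 thus stood apart from replicate 1, which lay among the old H2O hearts. The other old hearts that stood apart were old H2O replicates 1 and 2 at ZT22, with 678.9 and 317.4 CPM, and the remaining 14 of the 18 hearts lay between 131.6 and 151.3 CPM. Sun1 was named after its values were seen, and it was not called at ZT10 (log2 fold change 1.18, adjusted p = 0.226, edgeR). It passed the test of the NR effect at ZT10 against that at ZT22 described below, with the largest value there (2.61, adjusted p = 0.0244, edgeR), which rests on 2 hearts at each time. Whether these hearts differ in another respect was not tested.

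**Figure D1:**
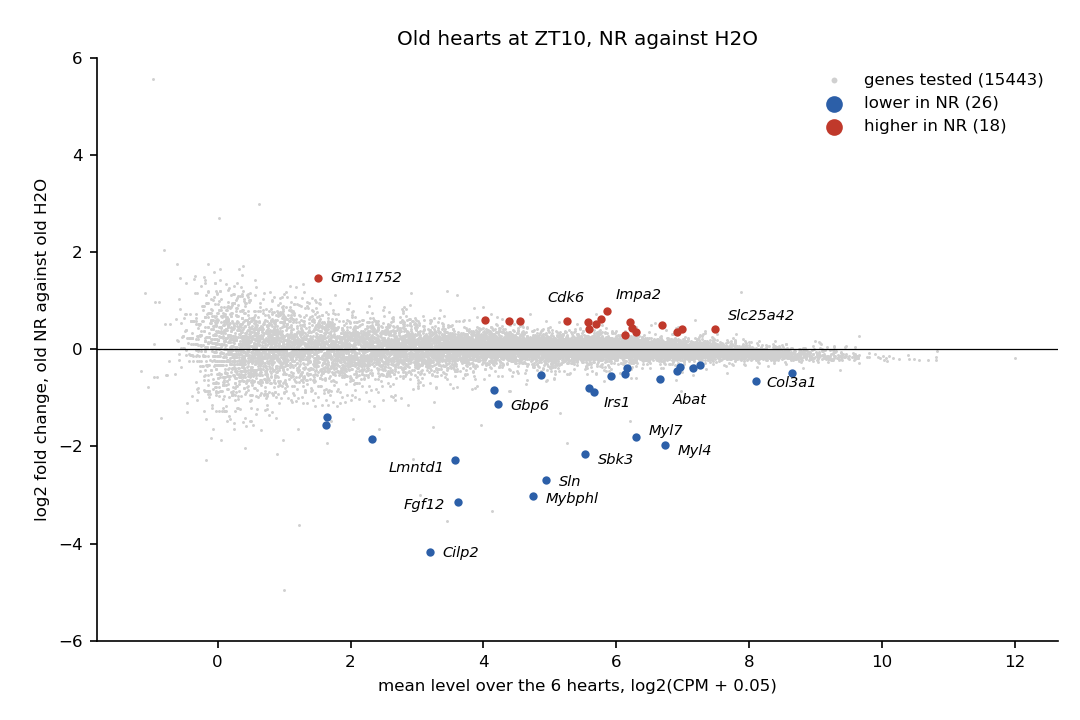
Log2 fold change of old NR against old H2O hearts at ZT10 (vertical axis) by the mean level over the 6 hearts (horizontal axis, log2 of CPM plus 0.05), with 1 point for each of 15443 genes. The 26 called genes that were lower (blue) reach -4.18, and of the 18 that were higher (red) only Gm11752, a gene at 1.23 to 4.46 CPM, exceeds 1.

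Of the 26 lower genes, 3 were on the list of atrial markers. Myl7 (ENSMUSG00000020469, chromosome 11, 5896637 to 5898782, GRCm38 positions of the GENCODE M21 annotation here and below), the atrial regulatory light chain, had 123.1, 99.5 and 144.5 CPM in old H2O and 37.4, 30.6 and 37.8 CPM in old NR hearts. The lowest old H2O heart was thus well above the highest old NR heart, and Myl7 was called (log2 fold change -1.80, standard error 0.33, adjusted p = 0.0227, edgeR). Myl4 (ENSMUSG00000061086, chromosome 11, 104550663 to 104595753), the atrial essential light chain, had 152.2, 138.3 and 216.8 CPM against 43.1, 43.0 and 43.0 CPM (log2 fold change -1.97, standard error 0.39, adjusted p = 0.0314, edgeR). Sln (ENSMUSG00000042045, chromosome 9, 53850164 to 53854560) had 48.5, 43.9 and 67.1 CPM against 9.44, 5.77 and 9.79 CPM (log2 fold change -2.69, standard error 0.52, adjusted p = 0.0283, edgeR). For each of these genes the old NR hearts lay close together and the old H2O hearts were spread upwards, with replicate 3 the highest. In fits that left out 1 heart, Myl7 ranged from -1.93 to -1.66, Myl4 from -2.10 to -1.75 and Sln from -2.82 to -2.46, and they were called in 1, 0 and 1 of the 6 fits.

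The promoters of Myl7 and of Mybphl, another atrial gene that fell, are shown here with that of Nppa, the natriuretic peptide gene of atrial myocytes, because atrial transcripts were among those with the largest differences between the groups. Each window runs from 250 bases before to 50 bases after the gene's start (RefSeq, GRCm38.p6) and is written 5′ to 3′ on the gene's own strand. Capitals mark a CArG box (the binding motif of serum response factor), the letters GATAA on either strand (the core read by GATA factors), and TATAAA.
Myl7, chr11:5898733-5899032, minus strand: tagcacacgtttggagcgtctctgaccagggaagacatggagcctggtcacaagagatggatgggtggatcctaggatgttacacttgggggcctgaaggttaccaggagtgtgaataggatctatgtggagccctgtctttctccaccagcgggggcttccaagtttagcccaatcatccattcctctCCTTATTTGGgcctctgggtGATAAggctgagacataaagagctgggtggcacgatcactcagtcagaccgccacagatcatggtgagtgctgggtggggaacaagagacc
Mybphl, chr3:108364661-108364960, plus strand: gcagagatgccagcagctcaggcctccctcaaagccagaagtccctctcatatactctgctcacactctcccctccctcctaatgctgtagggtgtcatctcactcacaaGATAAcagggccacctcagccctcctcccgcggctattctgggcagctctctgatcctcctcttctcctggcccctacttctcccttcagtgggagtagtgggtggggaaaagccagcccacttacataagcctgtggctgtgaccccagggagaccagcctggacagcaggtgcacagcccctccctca
Nppa, chr4:148000472-148000771, plus strand: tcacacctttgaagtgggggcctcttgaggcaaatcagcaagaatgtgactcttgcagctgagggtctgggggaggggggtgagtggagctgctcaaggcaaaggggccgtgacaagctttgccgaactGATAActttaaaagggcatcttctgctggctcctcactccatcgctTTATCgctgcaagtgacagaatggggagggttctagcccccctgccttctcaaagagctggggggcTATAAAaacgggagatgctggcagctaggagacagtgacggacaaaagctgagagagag
The Myl7 window held a CArG box from -61 to -52 and GATAA from -41 to -37. The Nppa window held GATAA letters on the plus strand from -121 to -117 and on the minus strand from -75 to -71, and the Mybphl window held them from -140 to -136. Over 32851 promoter windows of this length, 1.63% held a CArG box, 25.4% GATAA and 13.6% TATAAA on either strand. Of the 18 lower genes with a window, 1 held a CArG box (Myl7) and 6 held GATAA (Mybphl, Lmntd1, Sbk3, Myl7, Olfm1 and Adam19). Of the 13 higher genes with a window, 0 and 3 did. TATAAA was in 3 of the lower and 4 of the higher genes. The letters CACGTG, also searched for, were in 3 lower and 4 higher genes, against 7.15% of all windows. A MEF2 site was in 1 lower and 1 higher gene, against 3.19%. A called gene was counted where any of its windows held the letters, whereas the percentages are shares of single windows. Counts of genes and these percentages are therefore unlike measures. These matches are letters in a window and describe no binding.

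Summed over Myl7, Sln, Myl4 and Bmp10, the level was 324.1, 340.6 and 428.9 CPM in the old H2O hearts and 91.4, 81.4 and 92.5 CPM in the old NR hearts. The means were 364.5 ± 56.3 CPM and 88.4 ± 6.08 CPM (SD, n = 3), 4.12-fold apart. A two-sided exact permutation test gave p = 0.1, the smallest that 3 hearts against 3 allow. The sum over the same genes in the other 12 hearts of the series ran from 79.2 CPM in old H2O replicate 1 at ZT22 to 675.8 CPM in young replicate 1 at ZT10, with a median of 137.4 CPM. Only 2 of those 12 hearts, old H2O replicate 2 at ZT22 (476.1 CPM) and young replicate 1 at ZT10, exceeded the lowest old H2O heart at ZT10, and 2 lay below the highest old NR heart. The old H2O hearts at ZT10 were therefore all on the high side of the series, and the old NR hearts were near its lowest values. Per exonic kilobase, Myl7 stood at 110, 103 and 136% of the level of Myl2, its ventricular counterpart, in old H2O hearts and at 37.6, 36.7 and 38.1% in old NR hearts. Duplicates had been removed from the single-end reads. The counts of Myl2 ran only from 1634 to 2112 over the 18 hearts, whose totals differ by 1.93 times between the shallowest and the deepest. Myl2 counts thus hardly followed depth, and the percentages cannot be read as relative amounts of the 2 transcripts.

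Bmp10, a growth factor of the right atrium, did not follow the other atrial genes. It had 0.412, 59.0 and 0.411 CPM in old H2O and 1.43, 2.16 and 1.86 CPM in old NR hearts. Old H2O replicate 2 alone was high, the other old H2O hearts were the lowest of the 6, and the groups overlapped (log2 fold change -3.54, standard error 2.50, adjusted p = 0.652, edgeR). Elsewhere in the series it was high in old H2O replicate 2 (219.5 CPM) and old NR replicate 1 (34.9 CPM) at ZT22 and in young replicate 1 at ZT10 (322.6 CPM).

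Of the 12 genes listed as atrial markers, 11 were tested and 3 were called, all lower (0.168% of all genes tested were called lower). At an unadjusted p under 0.05 by edgeR, 6 of the 11 were lower (4.54% of all genes tested were). The median log2 fold change was -0.60, against -0.003 over all genes tested. The list summed to 861.4, 920.6 and 1127 CPM in old H2O and to 555.6, 523.1 and 536.8 CPM in old NR hearts, with the potassium channel gene Kcnj3 as its most abundant member. Dkk3, a secreted Wnt modulator, had 107.2, 81.4 and 137.8 CPM against 34.0, 46.4 and 34.8 CPM, and missed the threshold (log2 fold change -1.48, adjusted p = 0.101, edgeR). Kcnj3 had 241, 276.8 and 294 CPM against 222.6, 206.1 and 222.4 CPM (log2 fold change -0.32, adjusted p = 0.0966, edgeR). The transcription factors Nr2f1, Nr2f2 and Tbx5, which are not restricted to myocytes of the atria, had log2 fold changes of 0.15, 0.13 and -0.09 and adjusted p-values of 0.819, 0.632 and 0.831 by the same edgeR test. Of the 7 ventricular markers 0 were called, with a median of 0.05, and the conduction-tissue gene Tbx3 had 34.4, 40 and 30 CPM against 45.8, 55.4 and 48.1 CPM (log2 fold change 0.51, adjusted p = 0.0777, edgeR).

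**Figure D2:**
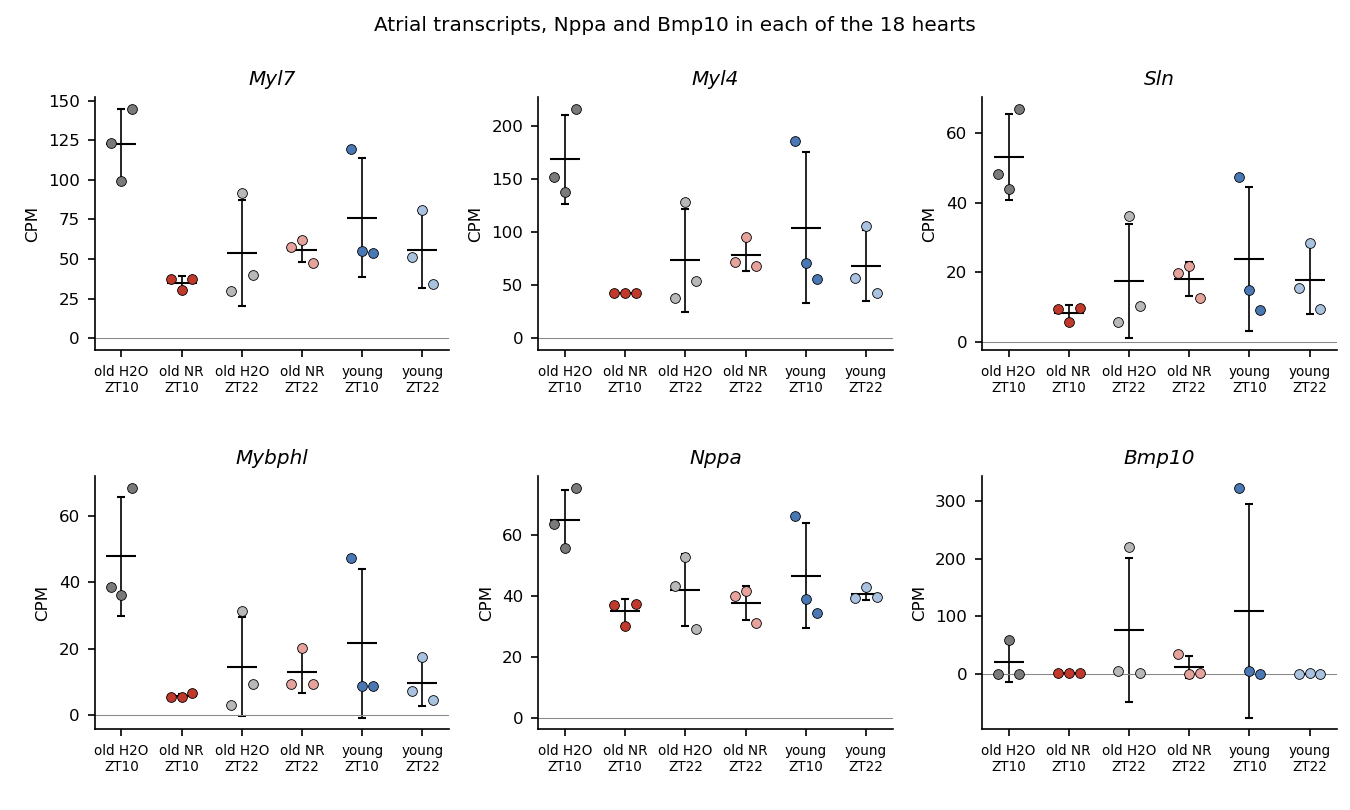
Level of 6 genes in each of the 18 hearts, in CPM on linear axes, by group (1 point per heart, the horizontal mark is the mean and the bar the SD of 3 hearts). For Myl7, Myl4, Sln, Mybphl and Nppa all 3 old H2O hearts at ZT10 lie above all 3 old NR hearts, while Bmp10 is high in single hearts of 4 groups.

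Several other genes fell as steeply as the atrial light chains. Mybphl, a myosin-binding protein of atria and conduction tissue that was listed with the cardiac stress genes, had 38.8, 36.3 and 68.6 CPM in old H2O and 5.35, 5.48 and 6.58 CPM in old NR hearts (log2 fold change -3.03, standard error 0.62, adjusted p = 0.0394, edgeR). Sbk3, a predicted protein kinase, had 61.0, 56.8 and 109.4 CPM against 16, 18.3 and 16.2 CPM (log2 fold change -2.15, standard error 0.38, adjusted p = 0.0227, edgeR). Lmntd1, which encodes a lamin tail domain protein, had 16.1, 14.7 and 28.3 CPM against 3.21, 4.47 and 4.39 CPM (log2 fold change -2.27, standard error 0.42, adjusted p = 0.0227, edgeR). As with the light chains, old H2O replicate 3 was the highest of the 6 hearts and the old NR hearts were within a narrow range. Genes with fewer counts moved the same way. Cilp2, a cartilage matrix protein, had 11.3, 11.7 and 28.7 CPM against 0.713, 0.865 and 1.18 CPM (log2 fold change -4.18, adjusted p = 0.0227, edgeR), and Fgf12, an intracellular modulator of sodium channels, had 19.0, 14.1 and 33.1 CPM against 3.56, 2.31 and 1.52 CPM (log2 fold change -3.15, adjusted p = 0.0436, edgeR). Ppp1r1b, an inhibitor of protein phosphatase 1, the metalloprotease gene Adamts19 and Hmmr, a hyaluronan receptor of dividing cells, fell by 1.84, 1.56 and 1.39 on the log2 scale from low levels, with 17.1, 20.7 and 12.4 counts on average.

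Where a per-heart score of Myl7, Sln and Myl4 was added to the model of all 18 hearts, a covariate chosen after seeing the data, edgeR called 0 genes, with 957 at an unadjusted p under 0.05. The score separated the ZT10 groups entirely, and the slope on the score came from the spread of the hearts within each of the 6 groups. In it the log2 fold change became 0.06 for Myl4 and 0.03 for Sln, which are part of the score, so that values near 0 were built in. For genes outside the score it became 0.21 for Mybphl, 0.27 for Fgf12, -0.42 for Sbk3 and -1.37 for Cilp2. The median over the 26 lower genes was -0.48, with 22 still negative and 14 of these at an unadjusted p under 0.05. The 18 higher genes all stayed positive with a median of 0.57, and all 18 had an unadjusted p under 0.05. With Bmp10 included in the score, edgeR called 6 genes, while the lower genes kept a median of -0.86 with all 26 negative and the higher genes one of 0.52 with all 18 positive. The log2 fold change was then -1.12 for Myl7, -1.15 for Myl4, -1.55 for Sln and -1.84 for Mybphl. The median of the list of atrial markers was -0.24 in that fit. Myl7, Myl4 and Sln are part of this score too, and the list holds all of its genes, so these values are not independent of it.

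Beside these genes, the complement genes C3 and C4b, the collagen gene Col3a1 and the interferon-inducible Gbp6 were lower with NR. C3, the central complement component, had 467.8, 474.5 and 459.4 CPM in old H2O and 341.2, 309.2 and 346.7 CPM in old NR hearts (log2 fold change -0.49, adjusted p = 0.0305, edgeR). C4b (ENSMUSG00000073418, chromosome 17, 34728380 to 34743882), a complement component upstream of C3, had 65.2, 65.3 and 53.6 CPM against 28.9, 43.4 and 33.1 CPM (log2 fold change -0.80, standard error 0.14, adjusted p = 0.0227, edgeR). For both, every old NR heart was below every old H2O heart. Gbp6, an interferon-inducible guanylate-binding protein, had 24.3, 28.1 and 24.0 CPM against 9.62, 13.1 and 12.0 CPM (log2 fold change -1.13, standard error 0.21, adjusted p = 0.0227, edgeR). Of 31 interferon-response genes tested 0 were called, and Igtp (-0.66, adjusted p = 0.275) and Iigp1 (-0.54, adjusted p = 0.231, both edgeR), the genes with the most negative values of that list, were high in old H2O replicate 2 only, at 107.4 and 243.4 CPM.

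Col3a1 (ENSMUSG00000026043, chromosome 1, 45311538 to 45349706), a fibrillar collagen, had 340.2, 295.4 and 365.6 CPM in old H2O and 223.3, 188.4 and 227.8 CPM in old NR hearts (log2 fold change -0.65, standard error 0.11, adjusted p = 0.0227, edgeR). It was the only 1 of 35 collagen and matrix genes that edgeR called on all 18 hearts. Over all genes tested, 0.168% were called lower. Negative values were seen for 32 of the 35, with a median log2 fold change of -0.15 against -0.003 over all genes. Of the 35, 15 were lower at an unadjusted p under 0.05 (4.54% of all genes tested were). DESeq2 called 3 on all 18 hearts, and the fits of only the 6 hearts called 9 (edgeR) and 7 (DESeq2), all lower. Without old H2O replicate 3 edgeR called 0. Fibrillar collagen Col1a1 (-0.40, adjusted p = 0.0771), the fibrillin gene Fbn1 (-0.40, adjusted p = 0.0826) and Col5a2 (-0.36, adjusted p = 0.0815, all edgeR) had groups that did not overlap but missed the threshold. Among 9 fibroblast markers 1 was called by edgeR on all 18 hearts, Dpt, which encodes the matrix protein dermatopontin (log2 fold change -0.32, adjusted p = 0.0283). Of these markers 7 were negative, with a median of -0.29, and 5 were lower at an unadjusted p under 0.05. DESeq2 called 2 on all 18 hearts, edgeR 4 on only the 6 hearts, and edgeR 0 with either atrial score. Those fits called only 6 genes in all with Bmp10 in the score and 0 without it. The fibroblast median was then -0.36 with Bmp10 in the score and -0.37 without it, each with 8 of the 9 negative. The fibroblast list summed to 1731, 1516 and 1649 CPM in old H2O and to 1399, 1289 and 1442 CPM in old NR hearts, and the transcription factor Tcf21, a defining fibroblast gene, had a log2 fold change of 0.32 (adjusted p = 0.547, edgeR). Among 10 macrophage markers 1 was called, the lysozyme gene Lyz2 (log2 fold change -0.36, adjusted p = 0.0283, edgeR). Of the 10, 8 were negative and 7 were lower at an unadjusted p under 0.05, and edgeR on only the 12 old hearts called 0. The list summed to 670.7, 732.3 and 667 CPM against 563.4, 578.1 and 617.3 CPM. Mrc1 and Adgre1, defining markers of tissue macrophages, had -0.35 and -0.36 (adjusted p = 0.144 and 0.133, edgeR). The part of atrial tissue, fibroblasts or macrophages in these differences was not tested.

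The remaining lower genes had varied roles. Irs1, the adaptor of the insulin receptor, had 53.8, 63.7 and 79.0 CPM in old H2O and 31.0, 39.6 and 35.6 CPM in old NR hearts (log2 fold change -0.88, standard error 0.18, adjusted p = 0.0396, edgeR). Abat, the mitochondrial transaminase of the neurotransmitter GABA, had 120.4, 128.5 and 117.2 CPM against 83.2, 78 and 77.9 CPM (log2 fold change -0.62, standard error 0.11, adjusted p = 0.0227, edgeR). Olfm1, a secreted glycoprotein, had 21.0, 22.4 and 25.5 CPM against 10.5, 15.6 and 12.2 CPM (log2 fold change -0.83, standard error 0.16, adjusted p = 0.0283, edgeR). At ZT10 the means of young hearts were 38.7 CPM for Irs1, 29.0 CPM for Abat, 15.0 CPM for Olfm1, 25.1 CPM for C4b and 11.9 CPM for Gbp6, while those for Col3a1 (401.0 CPM) and Adamts19 (5.06 CPM) were above the old H2O means of 333.7 and 4.60 CPM. These are given side by side since old H2O hearts are the common reference of both comparisons. The metalloprotease gene Adam19, Ndnf (a secreted neurotrophic factor), Slc41a3 (a magnesium transporter), Pnrc1 (a nuclear receptor coactivator), Ypel2 and Sort1 (the sorting receptor sortilin) fell by 0.56, 0.54, 0.51, 0.44, 0.39 and 0.39 on the log2 scale, with adjusted p-values from 0.0283 to 0.0497 by edgeR. Sort1 ends 3399 bases before Mybphl on the same strand.

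**Figure D3:**
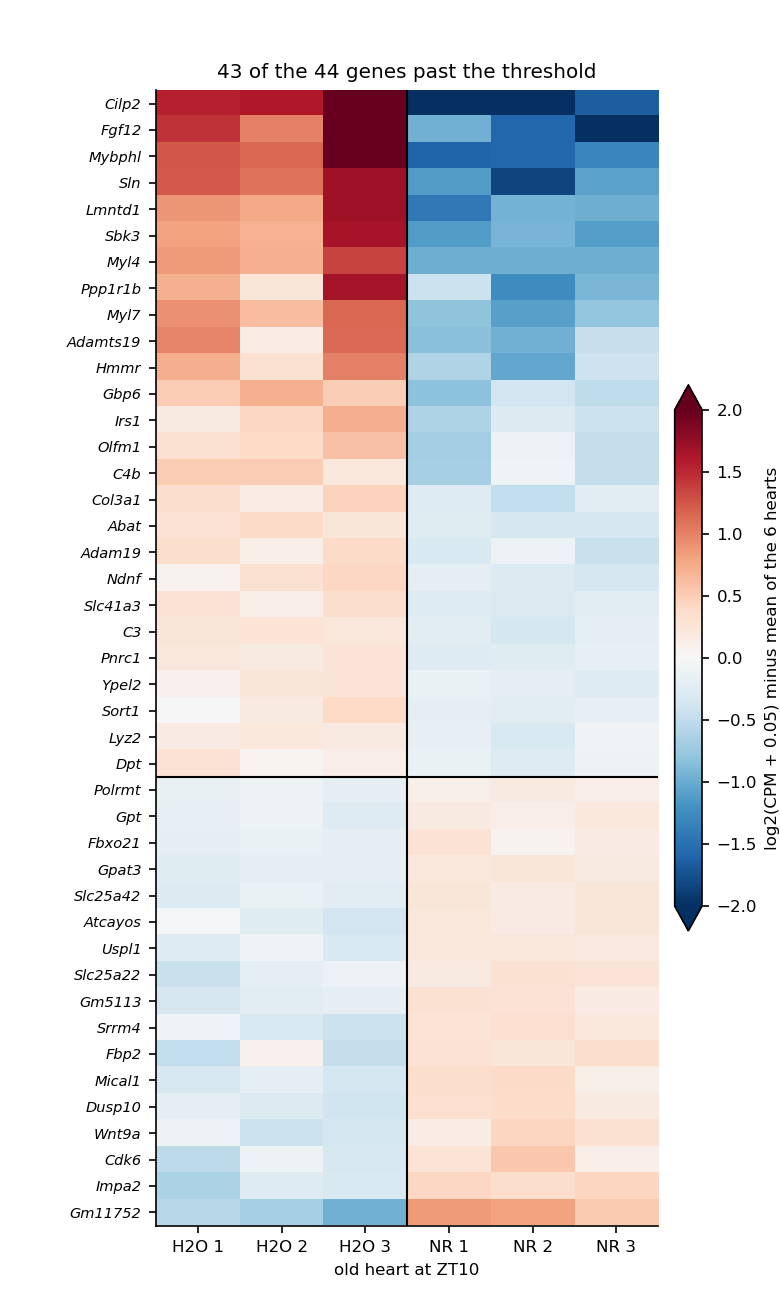
Of the 44 called genes, 43 (rows) in the 6 old hearts at ZT10 (columns), coloured by log2 of CPM plus 0.05 minus the gene's mean over the 6 hearts. The vertical line parts H2O from NR hearts and the horizontal line parts the 26 lower from 17 of the higher genes, and old H2O replicate 3 is the darkest red in the upper rows.

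Genes that rose with NR had small differences apart from Gm11752, and Slc25a42, Slc25a22 and Polrmt among them encode mitochondrial proteins. Slc25a42 (ENSMUSG00000002346, chromosome 8, 70184340 to 70212305), the mitochondrial carrier of coenzyme A, had 147.6, 161.8 and 151.1 CPM in old H2O and 209.2, 198.6 and 210 CPM in old NR hearts (log2 fold change 0.42, standard error 0.07, adjusted p = 0.0227, edgeR). Slc25a22, a mitochondrial glutamate carrier, had 74.2, 89.5 and 93.2 CPM against 114.9, 125.4 and 120.5 CPM (log2 fold change 0.49, standard error 0.10, adjusted p = 0.0314, edgeR). Polrmt, the RNA polymerase of mitochondria, had 62.5, 65.1 and 61.4 CPM against 75.6, 78.8 and 75.9 CPM (log2 fold change 0.29, adjusted p = 0.0366, edgeR). For all 3 genes each old NR heart was above each old H2O heart by more than the spread within either group. Gpt, the alanine aminotransferase, rose by 0.35 from 69.2 ± 3.80 to 88.3 ± 2.06 CPM (SD, n = 3).

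Several enzyme genes were also among the higher genes. Fbp2, the muscle fructose bisphosphatase, had 51.1, 76.1 and 51.7 CPM in old H2O and 87.3, 85.2 and 91.8 CPM in old NR hearts (log2 fold change 0.55, standard error 0.12, adjusted p = 0.0436, edgeR). Old H2O replicate 2 was above the other old H2O hearts for Fbp2 and still below the lowest old NR heart. Impa2, an inositol monophosphatase, had 35.9, 46.4 and 45.4 CPM against 74.0, 71.4 and 75.4 CPM (log2 fold change 0.78, standard error 0.13, adjusted p = 0.0227, edgeR). It had the largest fold change of the higher protein-coding genes. Gpat3, which adds the first fatty acid in triglyceride synthesis, had 40.2, 41.9 and 41.9 CPM against 55.2, 56.8 and 54.0 CPM (log2 fold change 0.42, standard error 0.08, adjusted p = 0.0280, edgeR). Of 34 genes of fatty acid oxidation and PPAR targets 0 were called by edgeR in the reported fit. At an unadjusted p under 0.05, 6 were higher (5.61% of all genes tested were). The median was -0.06, or 0.02 with library size as a covariate. Ucp3 (0.60, adjusted p = 0.225) and Cpt1a (0.38, adjusted p = 0.110, both edgeR) were among the most positive. On only the 6 hearts edgeR called 4 and DESeq2 called 2 of this list, all higher. It had 1 gene called by edgeR with library size as a covariate and 2 with the replicate number as a block, also higher. Of 27 genes of glycolysis and glucose use 0 were called by edgeR in the reported fit. Their median was -0.15, or -0.02 with library size as a covariate. On only the 6 hearts edgeR and DESeq2 each called 1 higher and 1 lower gene of this list. The fit with the replicate number as a block also called 1 higher and 1 lower.

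The other higher genes had varied roles. Cdk6 (ENSMUSG00000040274, chromosome 5, 3341485 to 3531008), a kinase of the cell cycle, had 37.1, 49.3 and 42.7 CPM in old H2O and 64.3, 76.8 and 58.0 CPM in old NR hearts (log2 fold change 0.62, standard error 0.11, adjusted p = 0.0227, edgeR). Dusp10, a phosphatase of stress-activated kinases, had 17.9, 16.6 and 15.4 CPM against 25.7, 26.2 and 23.1 CPM (log2 fold change 0.59, standard error 0.12, adjusted p = 0.0436, edgeR). Wnt9a, a secreted Wnt ligand, had 14.6, 11.7 and 12.3 CPM against 17.5, 21.2 and 19.6 CPM (log2 fold change 0.60, standard error 0.13, adjusted p = 0.0436, edgeR). In each case every old NR heart was above every old H2O heart, by the fewest CPM for Wnt9a. Mical1, an actin-oxidizing enzyme, rose from 18.7 ± 1.26 to 27.8 ± 2.61 CPM, and the neuronal splicing factor gene Srrm4 from 38.7 ± 4.91 to 56.6 ± 2.40 CPM (SD, n = 3). The SUMO isopeptidase gene Uspl1 went from 64.3 ± 5.03 to 86.7 ± 0.967 CPM and the F-box gene Fbxo21 from 106.3 ± 2.64 to 135.5 ± 10.6 CPM (SD, n = 3). Their log2 fold changes were 0.57, 0.55, 0.43 and 0.35, with adjusted p-values of 0.0314, 0.0436, 0.0227 and 0.0227 by edgeR. The noncoding Gm5113 (0.51), Gm11752 (1.47) and Atcayos were called as well.

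Atcayos is an antisense RNA on the plus strand of chromosome 10 (81194609 to 81210877) that spans Nmrk2, the muscle NR kinase, and part of Atcay, a neuronal adaptor gene, both on the minus strand. The overlap in genomic span was 3882 bases, the whole of Nmrk2, and 6370 bases of Atcay. Atcayos had 123.9, 106.8 and 96.7 CPM in old H2O and 147, 141 and 149 CPM in old NR hearts (log2 fold change 0.42, adjusted p = 0.0253, edgeR). Nmrk2 (ENSMUSG00000004939, 81198170 to 81202051) had 19.4, 19.8 and 19.7 CPM against 28.9, 37.8 and 30.5 CPM (log2 fold change 0.73, standard error 0.16) that just missed the threshold (adjusted p = 0.0515, edgeR). Atcay had 18.6, 18 and 9.03 CPM against 24.8, 26.5 and 19.4 CPM (log2 fold change 0.63, adjusted p = 0.168, edgeR). Values of all 3 genes of the locus were thus higher in every old NR heart than in any old H2O heart. The libraries were stranded and reads over several genes were dropped, but whether strand was used in counting is not given in the sources used here, so reads of these genes cannot be told apart with certainty. Young hearts at ZT10 had 33.4 ± 0.869 CPM of Nmrk2 (SD, n = 3). Nmrk2 was called by DESeq2 on all 18 hearts (log2 fold change 0.72, adjusted p = 0.0148) and by edgeR without the filter on low counts (adjusted p = 0.0416), and in 0 of the 6 edgeR fits without 1 heart, with adjusted p-values from 0.112 to 0.270.

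Among genes that make or use NAD+, Nmrk2 came nearest to the threshold. Of 40 genes of NAD+ synthesis and consumption 36 were tested and 0 were called by edgeR, 9 had an unadjusted p under 0.05 (10.1% of all genes tested did), and the median log2 fold change was 0.02. DESeq2 on all 18 hearts called 1, Nmrk2. Nampt, the enzyme that salvages nicotinamide, had 388.2, 351 and 354.7 CPM in old H2O and 327, 277 and 341 CPM in old NR hearts (log2 fold change -0.21, adjusted p = 0.481, edgeR). Naprt, which uses nicotinic acid, had 0.38 (adjusted p = 0.123) and the ectonucleotidase gene Nt5e -0.43 (adjusted p = 0.170, edgeR). Slc12a8, a proposed transporter of nicotinamide mononucleotide, had -0.97 (adjusted p = 0.366, edgeR) at levels from 0.535 to 2.46 CPM.

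Of the 20 core clock genes, the transcription factors and their repressors that set the daily rhythm, 0 were called by edgeR, 6 had an unadjusted p under 0.05 (against 10.1% of all genes tested), and the median was 0.01. Arntl (ENSMUSG00000055116, chromosome 7, 113207465 to 113314126), which encodes BMAL1 and is at a low phase at this time, had 6.80, 6.44 and 9.44 CPM in old H2O and 2.32, 4.61 and 3.71 CPM in old NR hearts. Every old NR heart was below every old H2O heart, and Arntl missed the threshold narrowly (log2 fold change -1.05, standard error 0.24, adjusted p = 0.0689, edgeR). It was called by DESeq2 on all 18 hearts (-1.06, adjusted p = 0.00902), the only clock gene that was, and by edgeR on the 6 hearts (adjusted p = 0.0466) or with library size as a covariate (0.0469). It was not called by DESeq2 on the 6 hearts (adjusted p = 0.114), nor by edgeR without the filter on low counts (0.0673) or without 1 heart (0.0771 to 0.365). Young hearts at ZT10 had 1.97 ± 0.524 CPM (SD, n = 3). Clock, the partner of BMAL1, had -0.31 (adjusted p = 0.258), the repressor Cry1 0.35 (adjusted p = 0.144) and the nuclear receptor gene Rora -0.30 (adjusted p = 0.291), all by edgeR.

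Among the natriuretic peptides, Nppa (ENSMUSG00000041616, chromosome 4, 148000722 to 148002079) had 63.5, 55.8 and 75.5 CPM in old H2O and 37.1, 30.1 and 37.5 CPM in old NR hearts, groups that did not overlap (log2 fold change -0.90, standard error 0.20, adjusted p = 0.0521, edgeR). It was called by edgeR without the filter on low counts (adjusted p = 0.0371) and in fits of the 12 old hearts (0.0255) or of the 6 hearts at ZT10 (5.42e-05, and 3.14e-08 with DESeq2), but not by DESeq2 on all 18 hearts (0.0773) nor by edgeR without 1 heart (0.0574 to 0.308). With the score of Myl7, Sln and Myl4 as a covariate it was -0.09 (adjusted p = 0.955, edgeR). Nppb, the peptide gene of stretched ventricle, had 93.8 ± 7.97 CPM against 82.0 ± 9.73 CPM (SD, n = 3), with overlapping groups (log2 fold change -0.19, adjusted p = 0.763, edgeR, and p = 0.3 in a two-sided exact permutation test). Of 17 stress and hypertrophy genes tested 1 was called, the atrial Mybphl, and the median was -0.20. Ccn2, a matricellular protein of fibrosis, had 140.8, 149.8 and 196.1 CPM against 88.2, 85.5 and 92.3 CPM (log2 fold change -0.87, adjusted p = 0.0991, edgeR), and Lgals3, the galectin of activated macrophages, had -1.08 (adjusted p = 0.0874, edgeR).

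Lists of abundant muscle transcripts leaned to the negative side with no gene called by edgeR on all 18 hearts. On only the 6 hearts edgeR called 1 sarcomere gene, lower. All 61 nuclear genes of the respiratory chain and ATP synthase and all 25 sarcomere genes had negative log2 fold changes, with medians of -0.16 and -0.18. With library size as a covariate the medians were -0.04 for both, and without old NR replicate 2, the deepest of the 6 libraries, they were -0.08 and -0.11. The highest count among the 18 hearts was 1.29 times the lowest for Myl2, 1.12 times for Actc1, 1.21 times for Tnnc1, 1.24 times for Cox6a2 and 1.61 times for Tcap, against 1.93 times for the totals. Myl7, with 590 exonic bases, had 597, 587 and 704 counts in the old H2O hearts. The NR libraries were on the whole the deeper ones, and the part of depth and of duplicate removal in these values was not tested.

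**Figure D4:**
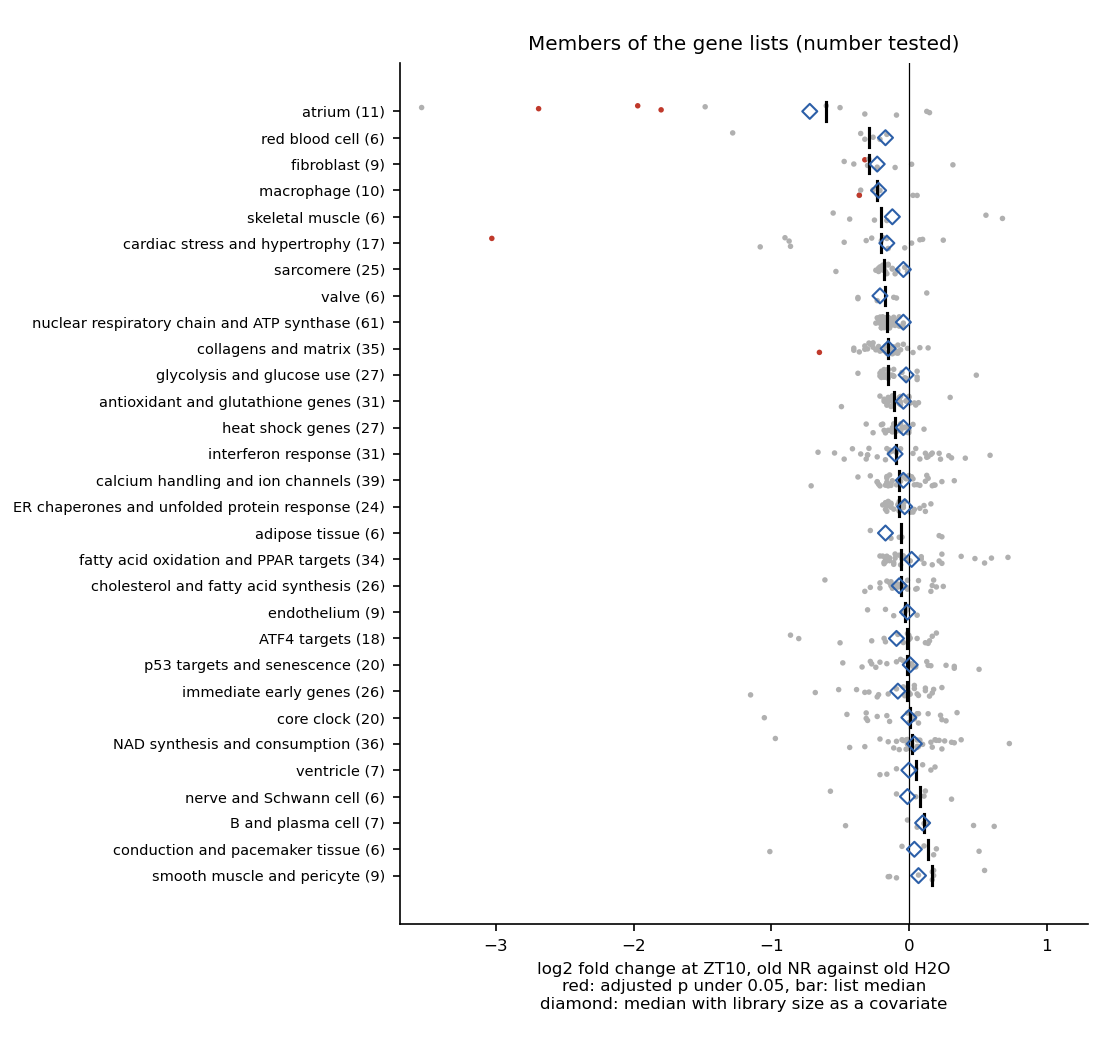
Log2 fold change of old NR against old H2O hearts at ZT10 for each tested gene of the lists with at least 6 tested genes (1 point per gene, red where called, black bar the list median, blue diamond the median with library size as a covariate). The atrium list has the lowest median, -0.60, and the diamonds of the sarcomere and respiratory chain lists lie nearer to 0 than their bars.

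Markers of other tissues that a dissected heart could carry were examined next. Of 9 endothelial and 9 smooth muscle and pericyte markers 0 were called, with medians of -0.03 and 0.17 (0.06 for the latter without old NR replicate 2). Of the red blood cell genes all 6 tested were negative and 0 were called, and the list summed to 171.1, 152.9 and 179.8 CPM against 141.8, 127.8 and 143.4 CPM. The 2 of 7 lung markers in the table summed to at most 1.60 CPM and the listed T cell and thymus genes to at most 11.2 CPM in any of the 6 hearts. Of the 6 adipose markers tested 0 were called, with sums between 73.0 and 87.4 CPM.

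The comparison of NR with water at ZT22 used other hearts and asks how far the differences at ZT10 recur at another time of day. At ZT22 edgeR called 54 genes (0.35% of the genes tested), 14 higher (0.0907%) and 40 lower (0.259%), of which 3 were among the 44. C4b (log2 fold change -0.98, adjusted p = 0.0024) and C3 (-0.46, adjusted p = 0.0375, both edgeR) were among these 3, both lower with NR at both times. C4b had a mean of 78.7 CPM in old H2O and 40.2 CPM in old NR hearts at ZT22. Without old NR replicate 2 at ZT22, edgeR called 2 genes at that time. Of the 26 lower genes 13 had a negative value at ZT22, with a median of 0.0, and of the 18 higher genes 5 had a positive value, with a median of -0.16. The collagen and matrix list had a median of -0.19 at ZT22 and the macrophage markers one of -0.42, each with 3 genes called lower by edgeR. The atrial list had -0.02 with 0 called. The atrial genes had values near 0 at ZT22, where the log2 fold change was 0.01 for Myl7, 0.07 for Myl4, -0.02 for Sln and -0.19 for Mybphl, with adjusted p-values of 0.973 or above by edgeR. Old H2O replicate 2 at ZT22 was high for these genes (91.8 CPM of Myl7) and the other old H2O hearts at that time were not (29.8 and 40 CPM).

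The test of the NR effect at ZT10 against that at ZT22, the NR by time interaction, was passed by 53 genes (0.343% of the genes tested), 36 (0.233%) with a more positive and 17 (0.11%) with a more negative effect at ZT10. Among them were 16 of the 44, 11 higher and 5 lower genes. The interaction contains the same ZT10 difference that selected the 44, so this overlap is not separate evidence on them. The largest for the higher genes was Cdk6, with means of 43.0 and 66.4 CPM in old H2O and old NR hearts at ZT10 and of 64.5 and 45.5 CPM at ZT22 (interaction 1.11, standard error 0.16, adjusted p = 0.00563, edgeR). Impa2 had an interaction of 1.04 (adjusted p = 0.0110, edgeR), with means of 71.4 and 59.9 CPM at ZT22. Nmrk2 went from 29.8 CPM in old H2O to 21.1 CPM in old NR hearts at ZT22 (interaction 1.17, adjusted p = 0.0200, edgeR) and Atcay from 21.9 to 14.6 CPM (1.21, adjusted p = 0.0295, edgeR). For these 4 genes the means were higher with NR in the day and lower with NR in the night. The alarmin gene Il33 (1.10) and the transcription factor gene Zbtb7c (1.08) were also among the genes with a more positive effect at ZT10, with adjusted p-values of 0.0156 and 0.0285 by edgeR.

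In the opposite direction, Gbp6 had an interaction of -1.40 (adjusted p = 0.0244, edgeR) and Arntl of -1.36 (adjusted p = 0.0200, edgeR), the latter with means of 7.56 and 3.55 CPM at ZT10 and of 67.9 and 85.7 CPM at ZT22. The means of Arntl in the NR hearts thus lay farther apart between the times than those in the old H2O hearts. Shld1, a DNA repair factor (-0.98), Pfkfb2, the cardiac regulator of glycolysis (-0.93), and Epha4, an ephrin receptor (-0.88), had adjusted p-values of 0.00895, 0.00923 and 0.0110 by edgeR. Kcnj3, the atrial potassium channel, also passed (-0.57, adjusted p = 0.0233, edgeR), while the atrial light chains missed the threshold, with -1.81 for Myl7 (adjusted p = 0.115) and -2.04 for Myl4 (adjusted p = 0.139, edgeR). The interaction count was 0 with the score of Myl7, Sln and Myl4 as a covariate, with 1026 genes at an unadjusted p under 0.05, and between 15 and 78 without 1 heart, lowest without old H2O replicate 3 at ZT10.

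**Figure D5:**
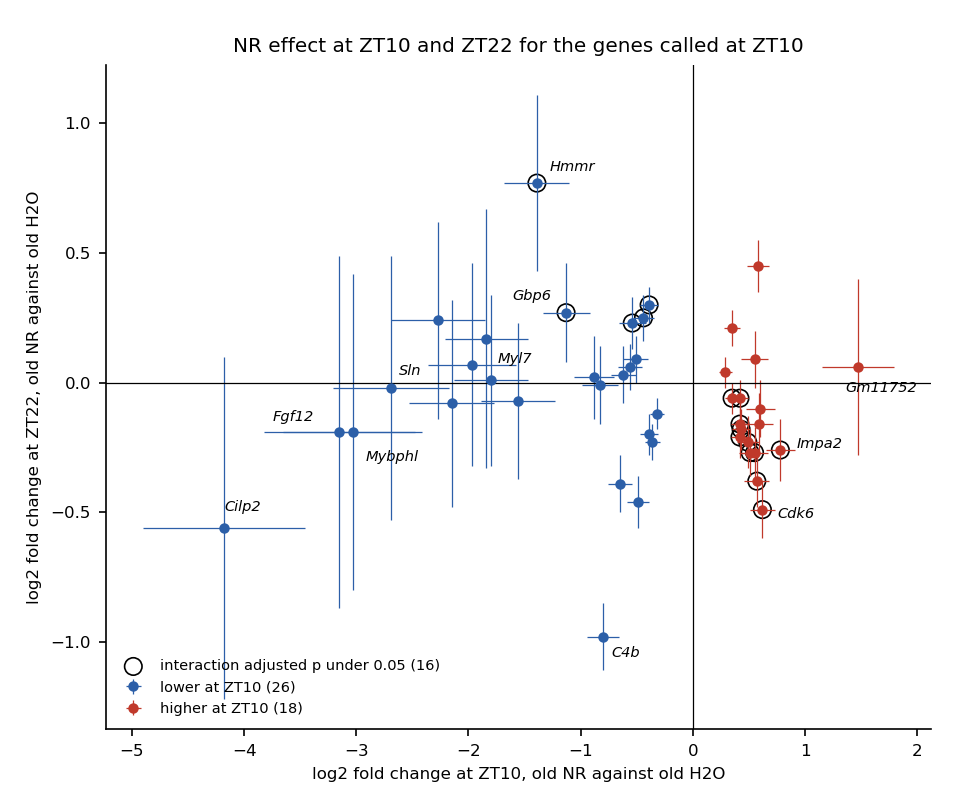
Log2 fold change of old NR against old H2O hearts at ZT22 (vertical axis) against that at ZT10 (horizontal axis) for the 44 genes called at ZT10, with bars of 1 standard error from edgeR. The atrial genes on the left lie near 0 at ZT22, C4b is negative at both times, and the 16 ringed genes passed the interaction test.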

How the data were processed

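Per the study's methods and the labels, RNA of heart tissue was made into stranded mRNA libraries and read from a single end (72 nt). The authors trimmed the reads (Trimmomatic 0.39), aligned them to mm10 (STAR 2.7.10a), removed duplicates (Picard 3.0.0) and multi-mapping, ribosomal and mitochondrial reads, and counted reads over exons without those that overlapped several genes (featureCounts 2.0.4). The counts used here are the deposited counts per gene, without normalization. They stand in the table whose name speaks of normalized values, while the table named as raw holds a score, the counts that the authors divided by size factors (DESeq2 1.36.0) and rounded, which was not used for tests. Columns of the authors' own comparisons were not used. The deposited counts and FPKM values of the HL-1 cultures, an atrial cell line treated in the same series, were also not used, as they bear on none of these hearts.

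Of 20764 genes, 20737 were matched by Ensembl identifier to GENCODE M21 (GRCm38). All 18 hearts (3922137 to 7562215 counts) were fitted with 1 mean per group in edgeR 4.0.16 (R 4.3.3, limma 3.58.1) after TMM normalization, and the 15443 genes whose average count exceeded 5 went into the two-sided quasi-likelihood F-test, with calls at a Benjamini-Hochberg adjusted p under 0.05, thresholds of the study's methods. Contrasts were old NR against old H2O at ZT10, the same at ZT22, and their difference. Levels are TMM-normalized CPM computed here. The summed atrial level, Nppa, Nppb and Nmrk2 were tested with exact permutations of the 6 hearts. Scripts were tested on simulated data.

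All called genes are counted, and a few genes are not reported here by name. Up to 12 in each direction, by absolute log2 fold change among those with an average count of at least 50 and groups that do not overlap, are given with their values, and likewise up to 5 genes in each direction of the interaction. Nppa, Nppb, the atrial genes and up to 4 members of each of 34 gene lists (17 of pathways, 17 of cell and tissue markers) are named too. The members, lists and rules were chosen with earlier results of these data known.

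Alternatives were DESeq2 1.42.0, its size factors, other filters, fits of 6 or 12 hearts, the replicate number as a block, library size or an atrial score as a covariate, and leaving out each heart. At these depths a gene near the minimum count can be called only if its difference is large. Promoter windows are those of RefSeq (GRCm38.p6).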

Additional observations from a re-analysis of the deposited data

Results flagged for a closer look

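The effect of NR at ZT10 differed from that at ZT22 by the interaction test (edgeR, adjusted p under 0.05) for 27 named genes, and each value here is the log2 fold change at ZT10 minus that at ZT22. Of the genes called and higher at ZT10 these were Cdk6 (1.11), Impa2 (1.04), Mical1 (0.95), Srrm4 (0.82), Gm5113 (0.78), Slc25a22 (0.72), Gpat3 (0.63), Uspl1 (0.61), Atcayos (0.58), Slc25a42 (0.48) and Fbxo21 (0.41). Their log2 fold changes at ZT22 lay between -0.49 for Cdk6 and -0.06 for Slc25a42 and Fbxo21, and none was called there. The genes called and lower at ZT10 were Hmmr (-2.16), Gbp6 (-1.40), Ndnf (-0.77), Pnrc1 (-0.70) and Ypel2 (-0.69), with values at ZT22 from 0.23 for Ndnf to 0.77 for Hmmr. Hmmr had 23.0 counts on average in old H2O and 10.3 in old NR hearts at ZT10, so its value rests on few reads.

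The others passed the interaction test without being called at ZT10. Sun1 (2.61), Atcay (1.21), Nmrk2 (1.17), Il33 (1.10), Zbtb7c (1.08) and Cpt1a (0.70) were more positive at ZT10, and Arntl (-1.36), Shld1 (-0.98), Pfkfb2 (-0.93), Epha4 (-0.88) and Kcnj3 (-0.57) more negative. Single outlying hearts were not tested.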

How the results depend on the processing

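Counts of called genes below are for ZT10, the interaction and ZT22, in that order, against 44, 53 and 54. Fits of only the 6 hearts at each time gave 234 at ZT10 and 2 at ZT22 with edgeR, and 121 and 25 with DESeq2. Library size as a covariate gave 77, 96 and 155, the atrial score with Bmp10 6, 34 and 59, and the score of Myl7, Sln and Myl4, added after seeing the data, 0, 0 and 51. Without 1 heart the counts ran from 0 to 22, from 15 to 78 and from 2 to 78. These fits hold fewer samples, and the cause was not tested. DESeq2 on all 18 hearts (59 at ZT10, 40 of them among the 44), its size factors (42), no filter (50) and filterByExpr (50) stayed within 1.5 times of the count at ZT10.

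The reported fit does not pair hearts by number. In their deviations from the group means, same-numbered old H2O and old NR hearts correlated by 0.019, 0.061 and 0.006 at ZT10. At ZT22 they correlated by 0.181, 0.042 and 0.027. Differently numbered hearts ran from -0.068 to 0.057 at ZT10 and from -0.193 to 0.192 at ZT22. Whether the numbers pair the hearts cannot be told from these values. With the replicate number as a block in the 12 old hearts the counts were 139, 134 and 161, with 6 atrial, 4 stress, 1 NAD+ and 1 clock gene called at ZT10, against 58, 63 and 58 in these hearts without the block. Not every heart correlated best with its own number.

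The summed atrial level differed by -276.1 CPM, by -431.1 CPM over all 12 atrial genes and by -296.3 to -243.9 CPM without 1 heart. Of the lists, atrial genes called went from 3 to 6 (6 hearts, edgeR and DESeq2), to 0 with either score, and to between 0 and 2 without 1 heart. Stress genes went from 1 to 5 and 4 (6 hearts, edgeR and DESeq2), 3 (12 old hearts), 2 (no filter, and library size) and 0 (either score, and each fit without 1 heart). NAD+ genes went from 0 to 2 (6 hearts, both tools) and 1 (DESeq2 on 18 hearts, no filter, filterByExpr, 12 old hearts, library size), and clock genes from 0 to 5 (6 hearts, edgeR) and 1 (DESeq2 on 18 hearts, library size). Of 952 values of 56 named genes under the alternatives 4 changed sign, all with the score of Myl7, Sln and Myl4, in which Myl4 had 0.06, Mybphl 0.21, Fgf12 0.27 and Sln 0.03, a score that holds Myl4 and Sln themselves. Another 354 were called in the reported fit only, and 28 in the alternative only. With 3 hearts a group, exact tests of single values cannot go below 0.1.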

Other observations

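The other gene lists had 0 called genes by edgeR on all 18 hearts, and the median over all genes was -0.003. DESeq2 on all 18 hearts called 1 antioxidant gene, lower. Of the stress pathways, the medians were -0.07 over 24 genes of ER chaperones and the unfolded protein response, -0.01 over 18 ATF4 targets, -0.10 over 27 heat shock genes, -0.11 over 31 antioxidant and glutathione genes, -0.01 over 26 immediate early genes and -0.01 over 20 p53 targets and senescence genes. Such small medians moved with single hearts, and without old NR replicate 2 they were -0.18 for ATF4 targets, -0.02 for heat shock genes, -0.12 for immediate early genes, -0.01 for ER chaperones, -0.05 for antioxidant genes and -0.13 for conduction tissue markers. Gpx3, the secreted glutathione peroxidase, came nearest to the threshold (log2 fold change -0.49, adjusted p = 0.0826, edgeR). Fos, the most negative immediate early gene, had 6.19, 8.98 and 14.8 CPM in old H2O and 3.74, 5.62 and 3.88 CPM in old NR hearts, groups that did not overlap (log2 fold change -1.15, adjusted p = 0.231, edgeR). The list of cholesterol and fatty acid synthesis had a median of -0.06 over 26 genes.

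Of 39 genes of calcium handling and ion channels the median was -0.07. Gja5, the connexin of atria and conduction tissue, had 26.2, 27.8 and 39 CPM in old H2O and 21, 18 and 17.6 CPM in old NR hearts (log2 fold change -0.71, adjusted p = 0.144, edgeR), with old H2O replicate 3 again the highest. Kcna5, an atrial potassium channel gene, had -0.37 (adjusted p = 0.225, edgeR). No gene of the following marker lists was called by edgeR on all 18 hearts. The medians were -0.17 for valve (6 genes), -0.17 for epicardium and mesothelium (3) and 0.14 for conduction tissue (6). They were 0.08 for nerve and Schwann cells (6), 0.11 for B and plasma cells (7) and -0.20 for skeletal muscle (6). Adipose tissue had -0.06 (6), T cells and thymus 0.01 (3) and neutrophils -1.31 (2). DESeq2 on all 18 hearts called 1 conduction tissue gene, higher. The neutrophil genes S100a8 and S100a9 were at 1.71 and 2.51 CPM on average in old H2O hearts.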
